A study of Mus musculus with 8 samples.

Results

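Anti-Müllerian hormone, the inhibins, the activins and their binding proteins were followed in Thy1+ cells isolated from the testes of 4-day-old mice. The 7 genes were Amh, its receptor gene Amhr2, the inhibin and activin subunit genes Inha, Inhba and Inhbb, and the antagonist genes Fst and Fstl3. They were found by RefSeq accession, which matched 9 of the 41174 probes on the array, with 1 probe for each gene except Inha and Inhbb, which had 2 each. All 9 probes lay well above background on all 8 arrays and were unsaturated, and all passed the filter on dim probes, which left 36415 probes and 17508 genes in all.

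The tested samples were 4 arrays of RNA from pups with the genotype Glis3KO2, written Glis3KO in the sample titles, and the comparison samples were 4 arrays from wild type pups (WT). All were on the C57BL/6 strain, untreated and kept with their mothers, and Glis3 is a zinc finger transcription factor that the series sets in relation to spermatogenesis. Thy1 is found on the surface of spermatogonial progenitors, the cell type that the labels name. The sources used here do not say how the Glis3KO2 allele was made. The design text counts 3 testes for each genotype, whereas 4 samples of each are labelled, and separate animals are not stated. The p-values therefore cover only the spread among these arrays, part of which may be technical.

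In the testis, AMH is a hormone of immature Sertoli cells that makes the Müllerian ducts regress in the male fetus. It binds the type II receptor AMHR2, which signals with type I receptors of the BMP family through SMAD1, SMAD5 and SMAD9. Activins are dimers of β subunits and signal through ACVR2A or ACVR2B and SMAD2 and SMAD3, whereas inhibins pair the α subunit with a β subunit and oppose activin at its receptors with the help of betaglycan. Follistatin and FSTL3 bind activins and keep them from their receptors.

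The 4 genes below are the β subunit genes Inhba and Inhbb, the α subunit gene and the AMH receptor gene, shown because their signals varied among the arrays in different ways. Each sequence holds the 250 bases before the start of the entry listed for the gene, on RefSeq assembly GRCm38.p6 (5 of the 7 genes had an entry). Part of the Inha window reads as coding sequence. Its listed start thus lies inside the gene, and the window is not taken here as the main Inha promoter. The windows are chr1:75507359-75507608 on the plus strand for Inha, chr13:16011601-16011850 on the plus strand for Inhba, chr1:119422249-119422498 on the minus strand for Inhbb, and chr15:102445117-102445366 on the plus strand for Amhr2. Capitals mark a half-site of the nuclear receptor NR5A1 (AAGGTCA).
Inha: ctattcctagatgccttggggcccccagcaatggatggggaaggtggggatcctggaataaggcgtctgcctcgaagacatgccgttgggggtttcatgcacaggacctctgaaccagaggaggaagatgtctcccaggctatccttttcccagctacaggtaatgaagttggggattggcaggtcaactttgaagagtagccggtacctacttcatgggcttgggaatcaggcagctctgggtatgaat
Inhba: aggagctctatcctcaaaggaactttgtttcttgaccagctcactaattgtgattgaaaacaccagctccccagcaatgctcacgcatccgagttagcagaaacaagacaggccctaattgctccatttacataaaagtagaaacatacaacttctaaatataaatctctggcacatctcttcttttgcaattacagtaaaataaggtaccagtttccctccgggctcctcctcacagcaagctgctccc
Inhbb: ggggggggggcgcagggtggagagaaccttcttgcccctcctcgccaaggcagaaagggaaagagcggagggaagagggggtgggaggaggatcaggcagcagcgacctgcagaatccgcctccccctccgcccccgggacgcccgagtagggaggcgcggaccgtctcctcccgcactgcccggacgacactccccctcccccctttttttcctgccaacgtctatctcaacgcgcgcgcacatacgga
Amhr2: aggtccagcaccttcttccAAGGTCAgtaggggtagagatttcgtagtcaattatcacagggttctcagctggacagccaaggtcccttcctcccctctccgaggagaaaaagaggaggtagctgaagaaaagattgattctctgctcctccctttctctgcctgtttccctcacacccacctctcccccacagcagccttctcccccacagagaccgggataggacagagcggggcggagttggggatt
The Inhba window had 43.2% G and C, the lowest of the 5, against 68% for Inhbb, 53.6% for Inha, 55.2% for Amhr2 and 71.2% for Fstl3. The median over all 32851 promoter windows was 52.4%.

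Of 4 motifs searched on both strands of these 5 windows, 1 match was found, the NR5A1 half-site 225 to 231 bases before the start of Amhr2. Sequence upstream of the Inha gene itself was not searched. AAGGTCA was in 4.08% of all windows of this length. The other motifs were the core of the GLIS binding site (TGGGGGGT, in 1.36% of all windows), a GATA site (AGATAA, in 9.99%) and the cAMP response element (TGACGTCA, in 1.55%), and no motif overlapped another in the member windows.

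WT replicates 3 and 4 stood apart from the other arrays on the first principal component of all genes (32.3% of the variance), at 69.1 and 60.0, against -55.9 to 3.87 in Glis3KO2 and -31.0 and -10.7 in the other WT arrays. On the second component (20.1%), WT replicate 1 stood apart at 80.8. The differences of the 7 genes were therefore also taken without WT replicates 3 and 4, over 4 Glis3KO2 arrays and 2 WT arrays. They were then 1.70 for Fst, 1.104 for Amhr2, 0.47 for Inhbb, 0.01 for Amh, -0.00 for Fstl3, -0.12 for Inhba and -0.18 for Inha on the log2 scale. Inhba and Inhbb thereby took the opposite sign to the one they had with all 8 arrays. Amh and Fstl3 also changed sign, but only to 0.01 and -0.00, which gives them no clear direction.

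Signals varied among the arrays of each genotype for most of the 7 genes, and the genotypes overlapped for all 9 probes (groups did not overlap for 3.29% of all probes and 3.5% of genes). Fst had the smallest p of the 7 and was 2.02-fold higher in Glis3KO2, Inhba was 1.46-fold higher and Amhr2 was also higher. Inhbb was 1.43-fold, Inha 1.19-fold and Amh 1.11-fold lower in Glis3KO2, and Fstl3 differed by 1.01-fold. None of these differences passed an adjusted p of 0.05 in limma, where 0 of 17508 genes passed (0%). At an unadjusted p under 0.05, 377 genes were higher (2.15%) and 831 lower (4.75%), and 0 of the 7 were among them. Of all probes, 0 passed after adjustment and 2328 (6.39%) were under an unadjusted 0.05. Within slide 1 (replicates 1 and 3) and slide 2 (replicates 2 and 4), the log2 differences were 0.69 and 1.33 for Fst, 0.25 and 0.84 for Inhba, 0.20 and 0.56 for Amhr2, and -0.08 and -0.23 for Amh. Inha, at -0.57 and 0.06, and Fstl3, at 0.07 and -0.05, had opposite signs on the slides. So did the second Inha probe A_52_P401484, at -2.06 and 0.44, and the second Inhbb probe A_52_P152847, at -0.45 and 0.10. Blocking on the replicate number left 0 genes called by limma and 1877 of 17508 under an unadjusted 0.05, against 1208 without the block. Fst was the 1 of the 7 among these 1877 genes.

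**Figure D1:**
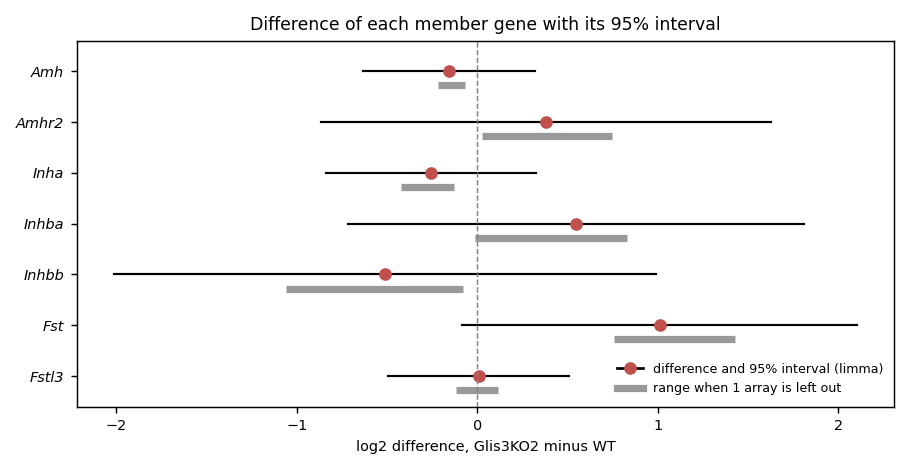
Log2 difference (Glis3KO2 minus WT, x axis) of each of the 7 genes, with the probe of highest mean standing for its gene. Points and black lines give the limma estimate and its 95% interval, grey bars the lowest and highest estimate when 1 of the 8 arrays is left out; all 7 intervals include 0, and that of Fst reaches from -0.08 to 2.11.

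The hormone and subunit genes come first, with log2 signals given relative to the 75th percentile of each array (replicates 1 to 4 in order). Amh, the Sertoli cell hormone gene, had 1.64, 1.35, 1.77 and 1.54 in Glis3KO2, against 1.58, 1.55, 1.99 and 1.80 in WT. The values lay close together, with WT replicate 3 highest and Glis3KO2 replicate 2 lowest. In processed signal units, this was 855 to 1168 in Glis3KO2 and 947 to 1561 in WT. The mean was 1.57 ± 0.18 in Glis3KO2 and 1.73 ± 0.21 in WT (SD, n = 4 each), a difference of -0.16 (SE 0.21, 95% interval -0.63 to 0.32, limma adjusted p = 0.845). Amh was lower in Glis3KO2 in 3 of 4 numbered pairs. Over the 8 arrays its SD was 0.20, and 4.02% of genes had a smaller one (median over all genes 0.44).

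Inha, the inhibin α subunit gene, was measured by 2 probes. The probe A_51_P434554 gave 1.12, 0.79, 1.11 and 1.66 in Glis3KO2, against 1.59, 1.11, 1.78 and 1.22 in WT. The probe A_52_P401484 gave -0.49, 0.15, 0.38 and 1.78 in Glis3KO2, against 1.52, -0.19, 2.48 and 1.24 in WT. On both probes WT replicate 3 was the highest array and Glis3KO2 replicate 4 came next, followed by WT replicates 1 and 4. The first differed by -0.26 (SE 0.26, 95% interval -0.84 to 0.33, limma adjusted p = 0.799) and was lower in 3 of 4 pairs. The second differed by -0.81 (SE 0.60, 95% interval -2.15 to 0.53, limma adjusted p = 0.782 over all probes) and was lower in 2 of 4 pairs. With the mean over both probes the difference of Inha was -0.53.

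Inhba, the βA subunit gene of activin A, had 4.22, 3.73, 2.86 and 2.47 in Glis3KO2, against 3.46, 3.42, 3.10 and 1.10 in WT. Replicates 1 and 2 of both genotypes were the 4 highest arrays, and WT replicate 4 was lowest. In processed signal this array read 584 units, against 2089 to 5693 in the other WT arrays and 1823 to 6946 in Glis3KO2. The mean was 3.32 ± 0.80 in Glis3KO2 and 2.77 ± 1.12 in WT (SD, n = 4 each), a difference of 0.55 (SE 0.57, 95% interval -0.71 to 1.81, limma adjusted p = 0.802). It was higher in Glis3KO2 in 3 of 4 pairs, and without WT replicate 4 the difference was -0.01. Replicates 1 and 2 were also the arrays of highest overall signal, with a 75th percentile of 374 and 458 units in Glis3KO2 and 355 and 533 in WT, against 251 and 341 in Glis3KO2 replicates 3 and 4 and 243 and 272 in the WT ones. The part of this brightness in the result was not tested.

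Inhbb, the βB subunit gene shared by activin B and inhibin B, had 1.05, 0.47, 1.597 and 3.23 in Glis3KO2 on the probe A_51_P325904, against 1.299, 0.93, 3.39 and 2.77 in WT. Glis3KO2 replicate 4 and WT replicates 3 and 4 were the 3 high arrays, and the other 5 lay at or below 1.597. The mean was 1.59 ± 1.19 in Glis3KO2 and 2.10 ± 1.17 in WT (SD, n = 4 each), a difference of -0.51 (SE 0.67, 95% interval -2.01 to 0.99, limma adjusted p = 0.840). Inhbb varied more among the 8 arrays than the other 6 genes, with an SD of 1.13, and 96.3% of genes had a smaller one. The dimmer probe A_52_P152847 had -2.55, -2.93, -2.52 and -1.32 in Glis3KO2, against -2.15, -2.62, -2.02 and -1.84 in WT. The same 3 arrays were highest on it, and its difference was -0.17 (SE 0.36, 95% interval -0.97 to 0.63, limma adjusted p = 0.928 over all probes). The difference on the first probe was -1.80 in pair 3 and 0.46 in pair 4, and it came to -1.03 within slide 1 and 0.00 within slide 2. It was -1.06 without Glis3KO2 replicate 4, -0.08 without WT replicate 3, and turned to 0.47 without WT replicates 3 and 4.

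**Figure D2:**
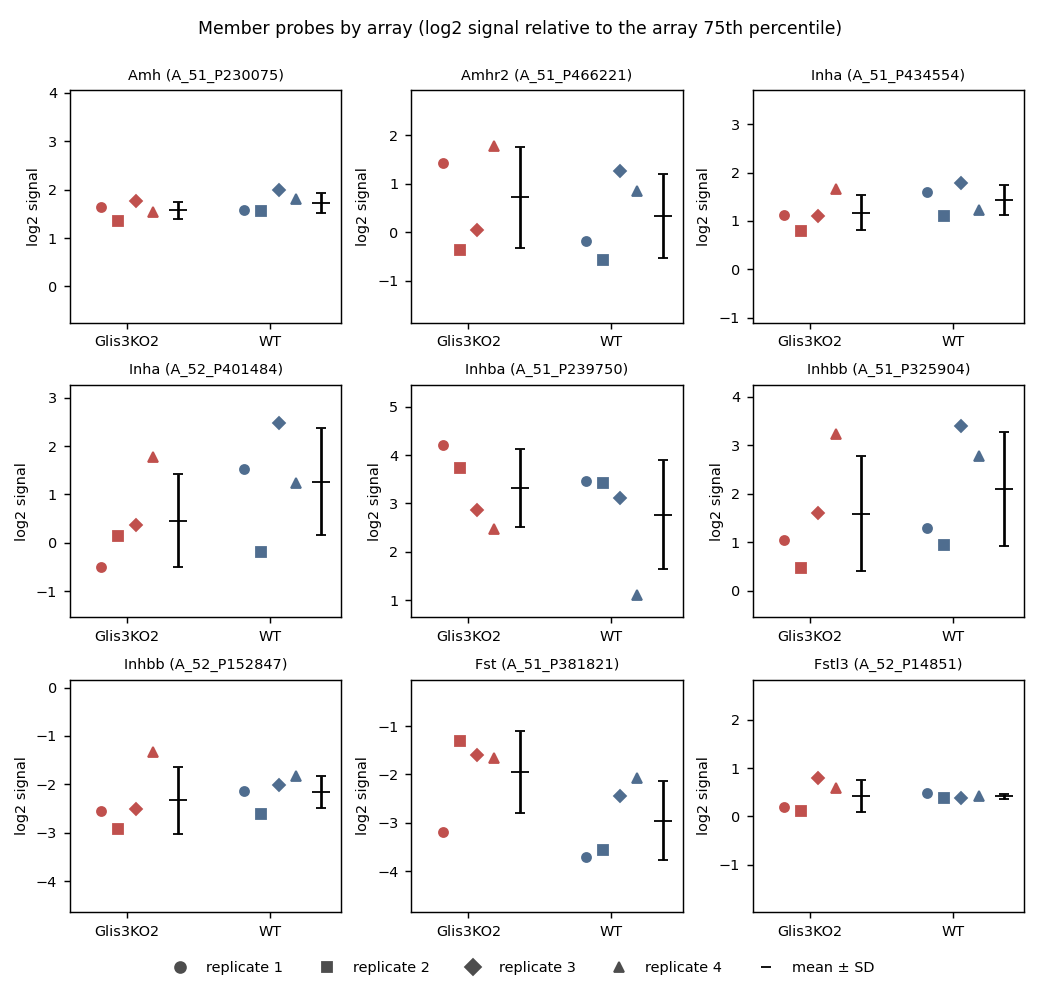
Log2 signal, scaled to each array's 75th percentile (y axis, the same span in every panel), of the 9 probes in 4 Glis3KO2 and 4 WT arrays, with the mean ± SD of each genotype beside the points and the replicate number given by the symbol. The genotypes overlap in all 9 panels, Amh and Fstl3 vary least, and Glis3KO2 replicate 4 lies with WT replicates 3 and 4 on both Inhbb probes.

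Amhr2, the type II receptor gene for AMH, had 1.44, -0.38, 0.05 and 1.78 in Glis3KO2, against -0.18, -0.58, 1.27 and 0.86 in WT. In both genotypes 2 arrays lay well above the other 2, namely Glis3KO2 replicates 1 and 4 and WT replicates 3 and 4. The processed signal ranged from 260 to 1171 units in Glis3KO2 and from 313 to 587 in WT. The mean was 0.72 ± 1.05 in Glis3KO2 and 0.34 ± 0.87 in WT (SD, n = 4 each), a difference of 0.38 (SE 0.56, 95% interval -0.87 to 1.63, limma adjusted p = 0.857). It was higher in Glis3KO2 in 3 of 4 pairs, by 1.62, 0.21 and 0.91 in pairs 1, 2 and 4, and was -1.22 in pair 3. Leaving out 1 array moved the difference between 0.03 (without Glis3KO2 replicate 4) and 0.75 (without Glis3KO2 replicate 2).

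Fst, which encodes follistatin, had -3.19, -1.31, -1.59 and -1.67 in Glis3KO2, against -3.72, -3.56, -2.45 and -2.08 in WT. Glis3KO2 replicates 2, 3 and 4 were above all WT arrays, and Glis3KO2 replicate 1 lay below WT replicates 3 and 4. In processed signal this was 40.9, 184.6, 83.3 and 107.5 units in Glis3KO2, against 27.0, 45.1, 44.5 and 64.2 in WT, and each value was flagged well above background. The mean was -1.94 ± 0.85 in Glis3KO2 and -2.95 ± 0.81 in WT (SD, n = 4 each), a difference of 1.01 (SE 0.49, 95% interval -0.08 to 2.11, limma adjusted p = 0.697). Fst was higher in Glis3KO2 in 4 of 4 numbered pairs, by 0.52, 2.25, 0.86 and 0.42, as were 7.35% of all genes. With the replicate number as a block its SE was 0.34 (limma adjusted p = 0.434). A two-sided exact permutation of the labels over the 8 arrays gave p = 0.143, where 0.0286 is the smallest possible.

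Other settings gave Fst other values. After normexp, which here took the median spot signal and an offset of 50 in place of the processed signal, it was at -0.02 when scaled to the 75th percentile, against a median over all genes of -0.23 in that setting and -0.08 in the setting used here. With normexp and quantile normalization it was 0.47, with array weights 0.54, and without WT replicates 3 and 4 it was 1.70.

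Fstl3, whose product binds activins as follistatin does, had 0.20, 0.11, 0.80 and 0.59 in Glis3KO2, against 0.48, 0.37, 0.39 and 0.43 in WT. The 4 WT arrays lay within a narrow band inside the range of the Glis3KO2 arrays. The mean was 0.43 ± 0.33 in Glis3KO2 and 0.42 ± 0.05 in WT (SD, n = 4 each), a difference of 0.01 (SE 0.23, 95% interval -0.49 to 0.51, limma adjusted p = 0.994). Over the 8 arrays, 6.31% of genes had a smaller SD.

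The receptors, transducers and regulators around these genes were examined next, with lists that share no member with the 7. Among the 10 receptors and co-receptors, 5 had a higher and 5 a lower mean in Glis3KO2, where 40.8% of all genes were higher and 59.2% lower, and the median difference was 0.04 (-0.08 over all genes). Acvr2a, a type II receptor for activins, had 0.14, -0.06, -0.43 and 0.48 in Glis3KO2, against -0.52, -0.24, -1.11 and -0.58 in WT. It was the 1 gene of this list with an unadjusted p under 0.05, with a difference of 0.65 (SE 0.27, limma adjusted p = 0.697). Of all genes, 2.15% were higher and 4.75% lower at an unadjusted p under 0.05. With the mean over its probes the difference of Acvr2a was 0.31, and without WT replicates 3 and 4 it was 0.41. Igsf1, an immunoglobulin superfamily membrane protein, differed by -0.66 (SE 0.32). Tgfbr3, which encodes betaglycan, differed by 0.39 (SE 0.35) and Acvr1c, a type I receptor, by -0.43 (SE 0.29). The type I receptor genes Bmpr1a and Acvr1, which can partner AMHR2, differed by -0.07 (SE 0.22) and 0.15 (SE 0.20), and Bmpr1b by 0.58 (SE 1.11).

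Of the 8 SMAD genes, 4 had a higher and 4 a lower mean, the median difference was -0.10, and 0 had an unadjusted p under 0.05. Smad4, the common partner of the receptor-activated SMADs, had 2.45, 2.57, 2.59 and 2.47 in Glis3KO2, against 2.43, 2.25, 2.17 and 2.30 in WT. All 4 Glis3KO2 arrays thus lay above all WT arrays, by a narrow margin, with a difference of 0.23 (SE 0.19, limma adjusted p = 0.753). This held for 1 of the 8 SMAD genes, and over all genes the groups did not overlap, in either direction, for 3.5%. With the mean over its probes the difference of Smad4 was 0.16. Smad2, an activin transducer, differed by -0.45 (SE 0.24), Smad5, a transducer of BMP-type receptors, by 0.42 (SE 0.33), and Smad9 by -0.31 (SE 0.27). Smad3 differed by 0.00 (SE 0.31) and Smad1 by 0.08 (SE 0.29).

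Among the other ligands, binding proteins and processing enzymes, 14 of 15 genes were measured, of which 6 had a higher and 8 a lower mean. Their median difference was -0.15, and 0 had an unadjusted p under 0.05. Mstn was not well above background on any array. Fstl1, a follistatin-like glycoprotein gene, differed by 0.94 (SE 0.43, limma adjusted p = 0.697), and Bambi, a pseudoreceptor gene, by 0.70 (SE 0.46). Nodal, a ligand of the same receptors as activin, differed by -0.58 (SE 0.35), and Fstl4 by -0.41 (SE 0.26). The other β subunit genes, Inhbc and Inhbe, picked for this role after their values were seen, differed by -0.40 (SE 0.29) and -0.26 (SE 0.21). Without WT replicate 4 Fstl1 was at 0.62.

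Of 10 genes that SMAD signalling is known to induce, 8 had a higher and 2 a lower mean in Glis3KO2, where 40.8% of all genes were higher. The median difference was 0.26, and 0 had an unadjusted p under 0.05. Id1, a helix-loop-helix inhibitor and BMP target, differed by 1.27 (SE 0.59; 0.41 without WT replicates 3 and 4), Id3 by 0.60 (SE 0.41), and the inhibitory Smad6 by -0.26 (SE 0.26). Smad6, Smad7 and Bambi are in this list and in one of the others.

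Of 9 regulators of Amh, 2 had a higher and 7 a lower mean, where 59.2% of all genes were lower. The median difference was -0.27, and 0 had an unadjusted p under 0.05. Nr0b1, a nuclear receptor gene, differed by -1.03 (SE 0.52), Nr5a1, whose product activates Amh and Inha, by -0.74 (SE 0.41), and Gata4 by -0.27 (SE 0.32). Nr0b1 is also in the Sertoli list, and Nr5a1 in the Leydig list. Without WT replicate 1, Nr5a1 was at -0.37 and Nr0b1 at -0.60. Without WT replicates 3 and 4 the median of this list was 0.33.

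**Figure D3:**
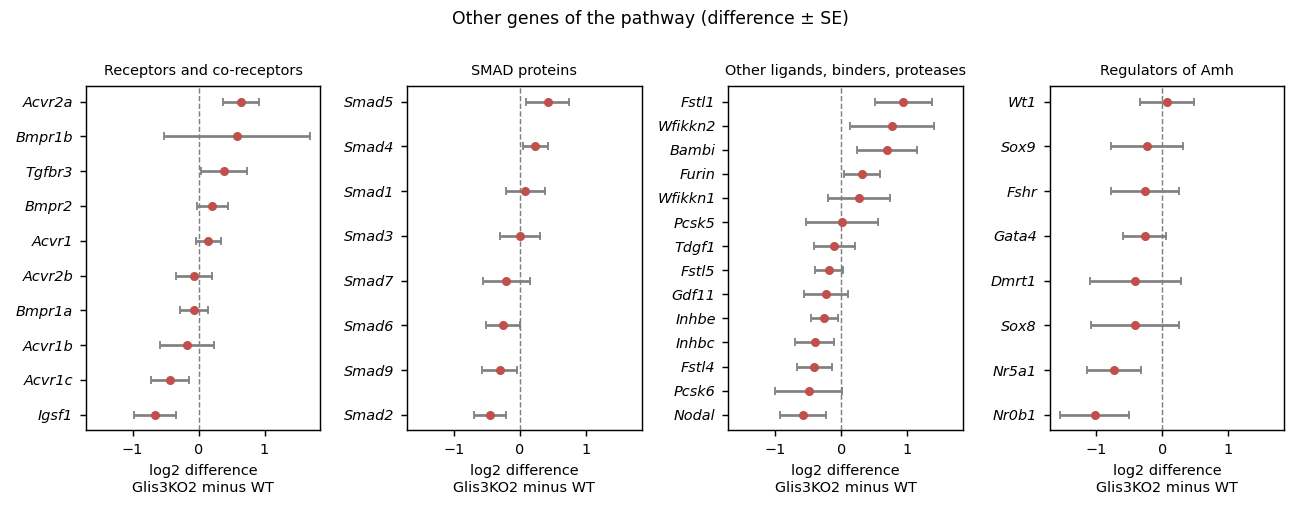
Log2 difference (Glis3KO2 minus WT, x axis) with its SE from limma for measured genes of 4 lists around AMH, inhibins and activins. Genes are ordered by their difference, points lie on both sides of 0 in each list, and 7 of the regulators of Amh shown lie below 0.

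Marker lists of germ and somatic cells were set beside the labelled cell type, spermatogonial progenitors, since AMH and the inhibins are products of somatic cells. All 12 germ cell markers were measured, and so were 17 of 18 Sertoli cell, 8 of 9 Leydig cell, 7 of 7 peritubular and smooth muscle, 8 of 8 stromal, 6 of 6 macrophage and 5 of 5 endothelial markers. Measured markers had passed the filter on dim probes, so none of them could be below background on all arrays. Every listed marker with a probe on the array passed this filter. So did 36415 of all 41174 probes, so passing it does not tell which cells were present. Mean log2 signals in WT ranged from -0.83 (Des) to 4.81 (Acta2) in the peritubular list. They ranged from -5.18 (Mfap5) to 4.82 (Col1a2) in the stromal list and from -2.02 (Nanos2) to 4.83 (Dazl) in the germ cell list. The share of each cell type was not tested. Glis3, the targeted gene, had -1.98, -2.18, -1.18 and -1.32 in Glis3KO2, against -1.09, -1.01, 0.57 and 0.60 in WT. Every Glis3KO2 array lay below every WT array (difference -1.43, SE 0.45, limma adjusted p = 0.697). Over all genes, the groups did not overlap, in either direction, for 3.5%. The highest Glis3KO2 array (-1.18) was close to the lowest WT array (-1.09), and WT replicates 3 and 4 lay well above the other WT arrays. Where the probe lies relative to the change in the gene is not known here. In RNA from many cells, fewer cells of a type and less RNA per cell cannot be told apart.

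The mean of the Sertoli list, centred over the arrays, ranged from -0.56 to 0.50 in Glis3KO2 and from -0.35 to 0.78 in WT. Its 3 highest arrays were WT replicates 3 and 4 and Glis3KO2 replicate 4, the same 3 that were highest on both Inhbb probes. Of its 17 measured genes, 2 had a higher and 15 a lower mean in Glis3KO2 (median difference -0.41), where 59.2% of all genes were lower. None of the 17 had an unadjusted p under 0.05. Clu differed by -0.94 (SE 0.43), the tight junction gene Tjp1 by -0.68 (SE 0.34) and Gata1 by -0.43 (SE 0.24). Without WT replicates 3 and 4 the median of the Sertoli list was 0.07, so its direction turned, and Amh was at 0.01. The part of Sertoli cell content in the values of Inhbb, Inha and Amh was not tested.

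The Leydig list ranged from -0.20 to -0.03 in Glis3KO2 and from -0.997 to 1.33 in WT, with WT replicate 1 highest and WT replicate 4, the low array for Inhba, lowest. WT replicate 4 was also lowest for the peritubular list, which ranged from -0.73 to 1.39 in Glis3KO2 and from -1.33 to 0.56 in WT. All 7 peritubular genes had a higher mean in Glis3KO2 (median difference 1.02, 2 with an unadjusted p under 0.05). Of all genes, 40.8% had a higher mean, and 2.15% were higher at an unadjusted p under 0.05. The stromal list ranged from 0.00 to 1.97 in Glis3KO2 and from -1.28 to 0.91 in WT, with 8 of 8 genes higher (median difference 1.13, 2 with an unadjusted p under 0.05). Mfap5, 1 of these 2, was well above background on 4 Glis3KO2 arrays and on 1 WT array, and so passed the filter mainly through Glis3KO2. The stromal list was highest in Glis3KO2 replicate 2, the highest array for Fst. The WT arrays did not follow this order, as WT replicate 2 was at 0.91 in the stromal list and at -3.56 for Fst. WT replicates 3 and 4, at -1.28 and -1.17 in the stromal list, were the highest WT arrays for Fst (-2.45 and -2.08). The germ cell list ranged from -0.53 to -0.21 in Glis3KO2 and from -0.31 to 1.10 in WT. In it 12 of 12 genes were lower (median difference -0.85, 4 with an unadjusted p under 0.05). Of all genes, 59.2% had a lower mean, and 4.75% were lower at an unadjusted p under 0.05. Without WT replicates 3 and 4 the median differences were -0.06 for the germ cell list, 0.44 for the stromal list, 0.35 for the peritubular list and -0.60 for the Leydig list.

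The macrophage list ranged from -0.40 to 0.99 in Glis3KO2 and from -0.98 to 0.82 in WT. In it 6 of 6 genes were higher, against 40.8% of all genes (median difference 0.32, 0 with an unadjusted p under 0.05). WT replicate 4, the low array for Inhba, was lowest in this list too. The endothelial list ranged from -0.05 to 0.31 in Glis3KO2 and from -0.80 to 0.96 in WT, with 3 of 5 genes higher (median difference 0.26). Without WT replicates 3 and 4 both lists turned, to -0.30 for macrophage and -0.09 for endothelial markers. The part of these cell types in the values of Inhba and Fst was not tested.

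**Figure D4:**
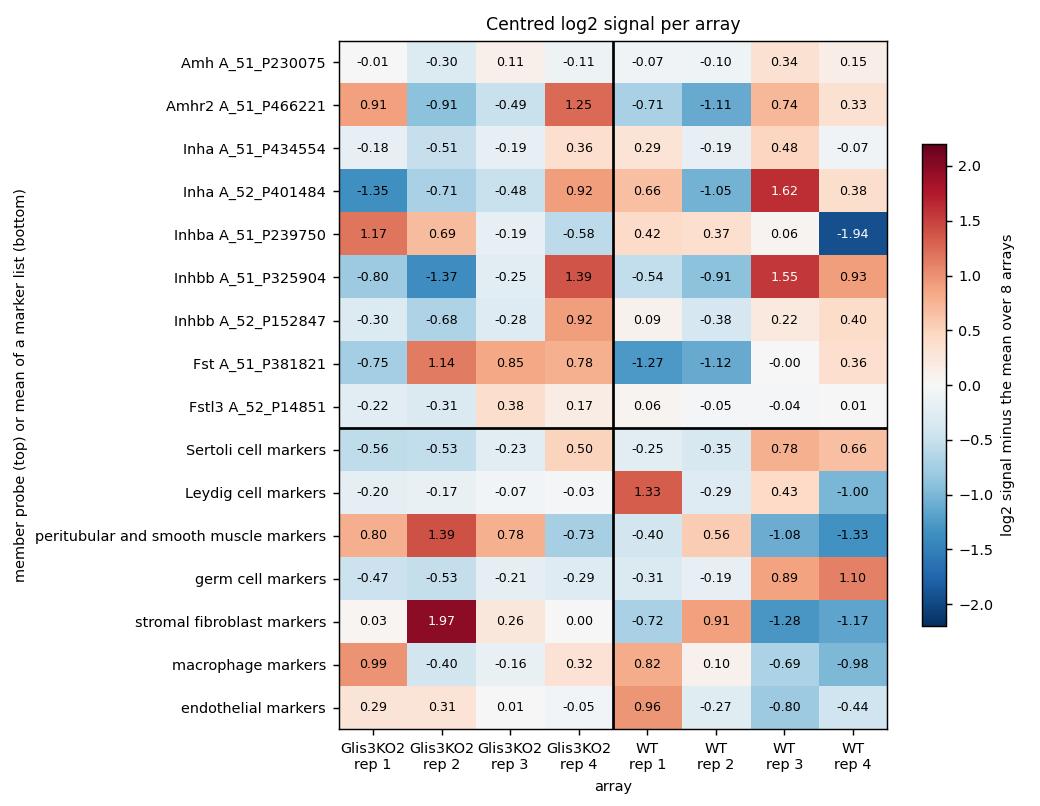
Log2 signal minus its mean over the 8 arrays (colour and printed value) for the 9 probes, above the line, and for the mean of each marker list, below it, with the 4 Glis3KO2 arrays left of the 4 WT arrays. On both Inhbb probes and in the Sertoli list the same 3 arrays are highest, and WT replicate 4 is lowest for Inhba.

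The 7 genes did not share 1 pattern across the arrays. The distance between 2 genes was taken as the root mean square difference of their centred log2 profiles over the 8 arrays, which share library and slide effects. Among the 21 pairs of members it was largest between the β subunit genes Inhba and Inhbb, at 1.77, which are also the 2 members with the largest SD (0.95 and 1.13). It was smallest between Amh and Fstl3, at 0.22, which are also the 2 with the least spread. Inha and Inhbb, which encode the subunits of inhibin B, were 0.83 apart.

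Over 16701 genes compared, those nearest to Inhba were Lama4 (distance 0.33), Rnf150 (0.34) and Thy1 (0.34), where the median gene was at 1.01. Thy1 is the marker of the isolation itself, and its difference was 0.65 (SE 0.44). Those nearest to Inhbb were Etnk2 (0.23), Slc26a7 (0.27) and Greb1 (0.32), with a median of 1.08. Nearest to Fst were Emilin3 (0.30), Ptges (0.35) and Trim9 (0.36), with a median of 0.98, and nearest to Amhr2 were Tyw1 (0.28), Sema7a (0.32) and Polb (0.37), with a median of 0.92. For Amh, Inha and Fstl3, whose own spread was small, the nearest genes (Plcg1, Olfr1339 and Atp6v1e2) lay at 0.05 to 0.07.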

How the data were processed

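Per the file headers, the 8 deposited one-colour Agilent files were made with Feature Extraction 12.0.0.7 and hold the software's processed intensity per spot, with flags for background and saturation; its background settings are not given in the sources used here. Probe annotation in the headers is on mm9, so coordinates are given only for the RefSeq windows, on GRCm38.p6. Per the labels' protocols, NuGEN's Pico WTA kit amplified the RNA, and the dye was Cy3. The deposited value table matched the processed intensity at 100% of each array's spots (relative tolerance 1e-06, column medians 67.2 to 143.6, linear and not centred).

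The log2 intensity minus each array's 75th percentile (243 to 533 units) was analysed. Outlier-flagged spots were left out. Of 41174 probes, 28223 had 1 gene through their RefSeq accession (GRCm38.p6) and 12951 none. A probe was kept when 4 or more of the 8 arrays had it well above background and all 8 had measured it. The share of spots well above background was 86.0% to 90.3%; precision is limited by the number of arrays. The kept probe of highest mean stood for its gene, and a second fit took every probe. R 4.3.3 and limma 3.58.1 tested genotype (eBayes after lmFit; Benjamini-Hochberg adjustment over all genes or probes, threshold 0.05), checked on simulated data. Exact permutation tests used the 70 labellings of 4 of 8 arrays.

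The members and lists were chosen with earlier results of these data known. Named were the members, up to 4 genes of smallest p per list around the pathway, and the 3 genes of nearest pattern per member; receptors and SMADs were also named by list. A gene of the list of regulators of Amh is not reported here by name or plotted. Same-numbered arrays deviated together (r across genes 0.16, 0.34, 0.18 and 0.13, all over 0.1), so another fit blocked on the number. Some arrays of unlike number did so too, Glis3KO2 replicate 4 with WT replicate 3 (0.14) and Glis3KO2 replicate 3 with WT replicate 4 (0.12). Slide 1 held replicates 1 and 3, and slide 2 the others. WT arrays were at positions 1 and 2 and Glis3KO2 arrays at 3 and 4 of each slide, so position and genotype cannot be told apart. The mean spot signal is not among the columns, so normexp took the median spot signal (offset 50). Alternatives were other background corrections, normalizations, filters, probe rules, blocks, spread models, array weights and arrays left out.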

Additional observations from a re-analysis of the deposited data

Results flagged for a closer look

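Inhba in WT replicate 4 stood apart from the other WT arrays. Its log2 signal was 1.10, against 3.10 to 3.46 in the other 3, and the gap filled more of the group's range than Dixon's 95% limit for 4 samples allows. It was 1 of 18 groups of 4 values checked, and chance flags about 1 in 20.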

How the results depend on the processing

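Over 21 alternatives no difference of the 7 genes or of the other Inha and Inhbb probes passed the threshold. The directions of Amhr2 (0.03 to 1.10) and Inha (-0.53 to -0.06) were kept in all 21. With normexp and the 75th percentile Fst was at -0.0230 and Bambi at -0.36; the cause was not tested. Without WT replicates 3 and 4 Amh was at 0.00995, Inhba at -0.12, Inhbb at 0.47 and its second probe A_52_P152847 at 0.0535, Fstl3 at -0.00139 and Tgfbr3 at -0.0188. With 1 array left out the ranges were -0.22 to -0.07 for Amh, -0.01 to 0.83 for Inhba, -1.06 to -0.08 for Inhbb, -0.51 to 0.03 for its second probe, 0.76 to 1.43 for Fst and -0.12 to 0.11 for Fstl3. Fstl3 turned without Glis3KO2 replicate 3 (-0.12) or 4 (-0.05) and without WT replicate 2 (-0.00770) or 3 (-0.00320), Inhba without WT replicate 4 (-0.00968), and the second Inhbb probe without Glis3KO2 replicate 2 (0.0256).

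Genes called numbered 0 except with quantile normalization, where 1 gene passed (Gm16702, limma adjusted p = 0.0252). Probes called numbered 0 except without Glis3KO2 replicate 3, where 1 probe passed (Ric3, limma adjusted p = 0.0432). Both names were taken after their values were seen. The unadjusted count of genes was 663 without WT replicate 3, 2407 without WT replicate 2, 1641 with normexp and the 75th percentile and 2533 with array weights, against 1208. The share of lower genes among them was 614 of 1078 with normexp and quantile normalization and 411 of 770 without WT replicates 3 and 4, against 831 of 1208. With the replicate number as a block, 0 genes were called, so no call changed, and the adjusted p of Fst was 0.434. Fst and the second Inhbb probe were dim, with processed signals of 27.0 to 184.6 and 43.8 to 136.3 units over the 8 arrays. Igsf1, Acvr1c, Smad9, Gata1, Inhbc and Bambi had lower mean log2 signals than Fst in both genotypes. Igsf1, Acvr1c, Smad9 and Gata1 differed by -0.15, -0.08, -0.05 and -0.09 with normexp and quantile normalization. With normexp and the 75th percentile they differed by -0.77, -0.76, -0.70 and -0.73.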
